A study of Mus musculus with 12 samples.

Results

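The TCR alpha chain that joins V region V1 (Trav1) to J region J33 (Traj33) is the chain type carried by mucosal-associated invariant T (MAIT) cells of mice. Its members were taken as the TRAC clonotypes that list V1 with J33, and they numbered 80 of 509702 TRAC clonotypes listed over 12 libraries. They were set against 1634 clonotypes of V1 with another J and 15281 clonotypes of J33 with another V. Each clonotype is 1 combination of V, J and CDR3 nucleotide sequence in 1 library, and the CDR3 is the stretch across the V-J join that faces the antigen. Over all libraries the 80 clonotypes held 245 UMIs, or 0.0214% of 1145380 TRAC UMIs. A UMI tags a cDNA molecule, so it counts transcripts and not cells, and fewer cells of a type and less RNA per cell cannot be told apart. The members are alpha chains only, the beta chain partner of each is not known, and no cell can be named a MAIT cell from its alpha chain alone.

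CD8+ T cells were isolated with CD8 microbeads from tumors, spleens and tumor-draining lymph nodes (tdLNs) of wild-type mice. The labels name CD8 T cells as the cell type of all 12 libraries, but only the titles of the tumor and spleen libraries carry CD8, and the selection cannot be checked in TCR tables. The mice were C57BL/6JNarl animals of 6 to 8 weeks that bore HNSC/Q1-2 tumors, grown from a subline of the mouse oral cancer line MTC-Q1. They received control IgG, IL-10-Fc (interleukin-10 fused to an antibody Fc part), αCSF1R (antibody AFS98, which blocks the CSF-1 receptor of macrophages) or BF10, which fuses human IL-10 to that antibody, in 3 doses with 3 days between doses. The labels give 30 mg/kg for all 4 agents, and the study's methods give 30, 20, 30 and 36 mg/kg in that order. RNA of 3 mice was pooled for each library, and each treatment and tissue gave 1 library (n = 1). Treatments were therefore not tested against each other, and tissues were compared with the 4 treatments as replicates.

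MAIT cells recognise small metabolites of microbial riboflavin synthesis that the non-polymorphic molecule MR1 presents. Most T cells form their alpha chain from nearly any V and J region, whereas MAIT cells share a semi-invariant alpha chain with a CDR3 of constant length and little variation at the join. They are rare in lymphoid organs of C57BL/6 mice and are better known from mucosal tissues, skin, lung and liver, and those of mice often lack CD8. Natural killer T (NKT) cells use a comparable fixed chain, V11 or V11D with J18, to recognise lipids on CD1d.

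On build GRCm38 (mm10), Trav1 lies on the plus strand of chromosome 14 from 52427928 to 52428876 and is the V gene at the 5′ end of the 128 annotated Trav genes. Each of its annotated transcripts has 2 exons, and the second exon encodes the start of the CDR3. Traj33 is a single exon on the same strand from 54185358 to 54185414, at place 29 of 60 annotated Traj genes, and 1756481 bases lie between the genes. The join deletes that stretch. The germline ends are shown because they determine how much of each CDR3 was inherited and how much was added at the join. The Trav1 part of the CDR3 runs from the codon of the conserved cysteine to the end of the gene (chr14:52428863-52428876), and the Traj33 part runs from the start of the gene to the conserved tryptophan (chr14:54185358-54185383). Capitals mark the 3 bases that both ends hold.

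Trav1 end: tgtgctgtgagGGA
Traj33 start: tGGAtagcaactatcagttgatctgg

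The leading V1-J33 chain was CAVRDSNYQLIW, which held 107 of 245 UMIs (43.7%, exact 95% interval 37.4% to 50.1%). It was listed in 9 of 12 libraries and was encoded by 2 nucleotide sequences. They are shown with those of the chain in second place by mean share, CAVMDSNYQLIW. In the sequence with shared bases, capitals mark the bases that match both germline ends, and in the others they mark bases that match neither. A sequence without capitals has germline ends that meet directly.

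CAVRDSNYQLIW, 105 UMIs in 9 libraries: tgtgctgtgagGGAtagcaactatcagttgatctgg
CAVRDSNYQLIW, 2 UMIs in 1 library: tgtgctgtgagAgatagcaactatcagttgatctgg
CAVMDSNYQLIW, 6 UMIs in 3 libraries: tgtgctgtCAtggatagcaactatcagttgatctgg
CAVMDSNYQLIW, 6 UMIs in 2 libraries: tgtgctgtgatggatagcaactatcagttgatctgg
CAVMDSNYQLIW, 1 UMI in 1 library: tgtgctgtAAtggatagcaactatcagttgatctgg

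The main sequence of the leading chain matched 14 bases of Trav1 and 25 bases of Traj33, with the 3 shared bases counted on both sides and 0 bases from neither. It can therefore be read from germline sequence alone. Of the pair of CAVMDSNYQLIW sequences with 6 UMIs, that in 3 libraries kept all 26 Traj33 bases, was cut back to 8 Trav1 bases and held 2 bases from neither. The sequences differ only at the codons that form residues 3 and 4, and the rest of the Traj33 part is common to them.

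By share of UMIs, V1-J33 was rarer in tumors and spleens than in tdLNs. In tumors it held 1 UMI of 79926 with control IgG (0.00125%, exact 95% interval 3.17e-05% to 0.00697%), 7 with IL-10-Fc (0.00708%, 0.00285% to 0.0146%), 14 with BF10 (0.0119%, 0.00651% to 0.02%) and 0 with αCSF1R. The αCSF1R tumor library was the smallest, and its 0 of 23650 TRAC UMIs had an exact 95% upper bound of 0.0156%, with 3 UMIs at 0.0127%. In spleens, the share was 0.02% with control IgG (23 UMIs, 0.0127% to 0.03%), 0.0107% with IL-10-Fc (13 UMIs, 0.00571% to 0.0183%), 0.0136% with αCSF1R (15 UMIs, 0.00764% to 0.0225%) and 0.00674% with BF10 (8 UMIs, 0.00291% to 0.0133%). These libraries overlapped with those of tumors. In tdLNs, the share was 0.0817% with control IgG (83 UMIs, 0.0651% to 0.101%), 0.043% with IL-10-Fc (59 UMIs, 0.0328% to 0.0555%), 0.0198% with αCSF1R (13 UMIs, 0.0105% to 0.0338%) and 0.0161% with BF10 (9 UMIs, 0.00736% to 0.0306%). The tdLN library held the highest share in each of the 4 treatments, and the control IgG and IL-10-Fc tdLN libraries stood above every spleen and tumor library.

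**Figure D1:**
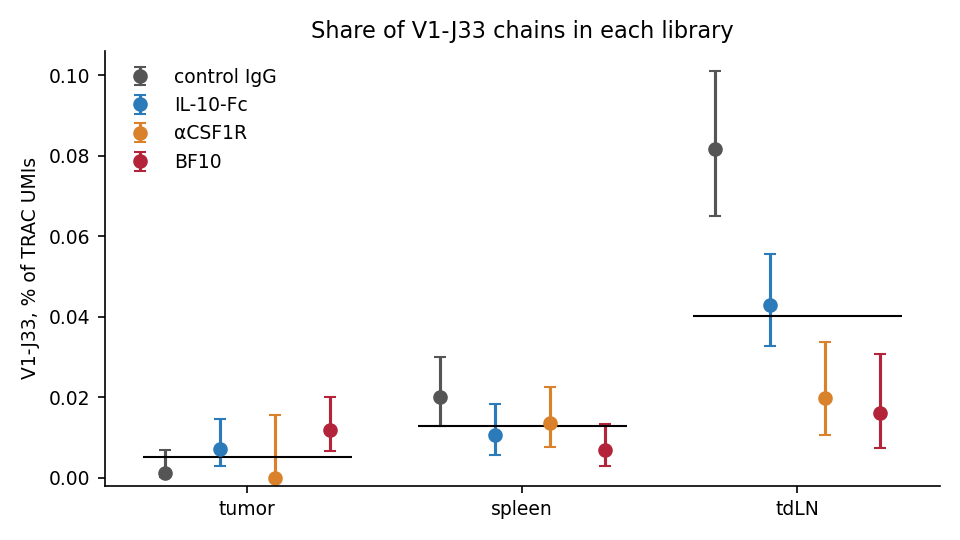
Share of V1-J33 in TRAC UMIs (percent, y axis) for each of the 12 libraries, grouped by tissue and coloured by treatment. Points are single libraries, bars are exact 95% intervals of counting error and black lines are means of 4 libraries, at 0.00506% in tumors, 0.0128% in spleens and 0.0402% in tdLNs.

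Over the 4 treatments, the mean share was 0.00506% ± 0.00551 (SD, n = 4) in tumors, 0.0128% ± 0.00558 in spleens and 0.0402% ± 0.0302 in tdLNs. The 3 tissues differed in an exact permutation test of tissue names within treatments (two-sided, p = 0.0185, adjusted p = 0.0309 over 5 tests, smallest possible p 0.00463). The tdLN share was above the spleen share in 4 of 4 treatments, and the spleen share was above the tumor share in 3 of 4. Counted by clonotype, the tdLN held 0.0116% of TRAC clonotypes against 0.0123% in spleen with αCSF1R, and 0.0103% against 0.0127% in tumor with BF10. With control IgG and IL-10-Fc the tdLN stayed highest by clonotype, at 0.0408% and 0.0252%. With UMIs of at least 7 reads, the BF10 tdLN held 0 V1-J33 UMIs, against 1 in spleen and 5 in tumor. The call was lost with UMIs of at least 7 reads (exact permutation test, adjusted p = 0.208) and with each clonotype counted once (adjusted p = 0.116), and it was also lost without control IgG, without IL-10-Fc or without αCSF1R (adjusted p = 0.139 for each). Without control IgG, the highest and lowest tissue means differed by 0.02 percentage points in place of 0.0351. With 3 treatments the test cannot give a p below 0.0278.

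Neither V1 nor J33 alone followed that order. V1 with other J regions held 0.331% ± 0.0575 (SD, n = 4) of TRAC UMIs in tumors, 0.331% ± 0.0501 in spleens and 0.253% ± 0.0398 in tdLNs, and the tissues did not pass the test (exact permutation test, adjusted p = 0.153). J33 with other V regions held 6.47% ± 5.29 in tumors, 3.01% ± 0.0411 in spleens and 2.71% ± 0.127 in tdLNs. The tumor mean rested largely on the αCSF1R library, at 14.3%, while control IgG gave 4.75%, IL-10-Fc 3.65% and BF10 3.13%. The difference between the highest and lowest tissue mean was 3.76 percentage points, and it was 1.11 without αCSF1R, 1.03 with each clonotype counted once and 0.613 without clonotypes of at least 0.1% of TRAC UMIs. The order ran the other way than that of V1-J33, with tumor above spleen and spleen above tdLN in each of the 4 treatments (exact permutation test, adjusted p = 0.0231). Without control IgG, without IL-10-Fc or without αCSF1R the exact permutation test gave p = 0.0278 each time, the smallest possible with 3 treatments. Its adjusted p was then 0.139, so these runs cannot show whether the order depends on a single treatment. V1 thus made up 0.15% ± 0.175 (SD, n = 4) of J33 UMIs in tumors, 0.422% ± 0.184 in spleens and 1.42% ± 0.984 in tdLNs (exact permutation test, adjusted p = 0.0231). That call was lost in the same exact permutation test with UMIs of at least 7 reads (adjusted p = 0.208), with each clonotype counted once (adjusted p = 0.116) and without control IgG, IL-10-Fc or αCSF1R (adjusted p = 0.139 for each). Without control IgG, the tissue means of the V1 part of J33 differed by 0.783 percentage points in place of 1.27.

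V1-J33 was then set against the number expected if V and J regions were joined without regard to each other, that is, V1 UMIs times J33 UMIs over TRAC UMIs in each library. An observed over expected ratio of 1 is not a neutral level for V1, which was seldom listed with J regions near the V genes. In spleens V1 with J57 and with J45 held 0 UMIs, against 14.4 and 41.6 expected. V1 with J32, J30 and J17 stood at ratios of 1.68, 1.35 and 1.85, and with J34 at 0.851. In tdLNs the highest ratio of V1 with a J other than J33 was 2.04, with J17. In tumors, 22 UMIs were observed and 48.7 expected, a ratio of 0.452 (95% Poisson interval 0.283 to 0.684). In spleens, 59 were observed and 48.6 expected, a ratio of 1.21 (0.924 to 1.57), so that no excess over this expected number was detectable at this depth. In tdLNs, 164 were observed and 31 expected, a ratio of 5.29 (4.51 to 6.16). Among V-J pairs with at least 5 expected UMIs, V1-J33 took rank 18 of 4267 in tdLNs, 1364 of 4503 in spleens and 2916 of 4153 in tumors. A ratio of 2 or more was reached by 6.87% of the pairs in tdLNs, 7.08% in spleens and 9.03% in tumors, so V1-J33 was among these pairs in tdLNs only. With each clonotype counted once in place of its UMIs, the ratio was 0.97 in tumors and 2.81 in tdLNs.

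Single tdLN libraries gave ratios of 7.49 with control IgG (5.96 to 9.28, rank 9 of 3137 pairs), 4.8 with IL-10-Fc (3.66 to 6.2, rank 24 of 3391), 3.4 with αCSF1R (1.81 to 5.81) and 2.36 with BF10 (1.08 to 4.49). The last 2 libraries expected 3.82 and 3.81 UMIs and were not ranked. All 4 intervals lay above 1, and in spleens only the interval of control IgG did (1.91, 1.21 to 2.86). These intervals cover counting error of single libraries and treat UMIs of the same clonotype as independent. The largest clonotype held 47 of 83 V1-J33 UMIs in the control IgG tdLN library and 6 of 9 in that of BF10. In tumors the ratio was 0.0983 with control IgG (0.00249 to 0.548), 0.574 with IL-10-Fc (0.231 to 1.18), 0 with αCSF1R (0 to 0.338) and 0.906 with BF10 (0.496 to 1.52). Low ratios were common there, as the median ranked pair stood at 0.469, 0.828, 0.09 and 0.88 in the same order. V1-J33 took rank 1683 of 2415, 2013 of 3025, 516 of 964 and 1542 of 3219 pairs. The expected number uses the J33 total, which in tumors held expanded chains of other V regions. J33 clonotypes of other V regions with at least 0.1% of TRAC UMIs held 2234 of 3797 UMIs with control IgG and 2971 of 3393 with αCSF1R.

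**Figure D2:**
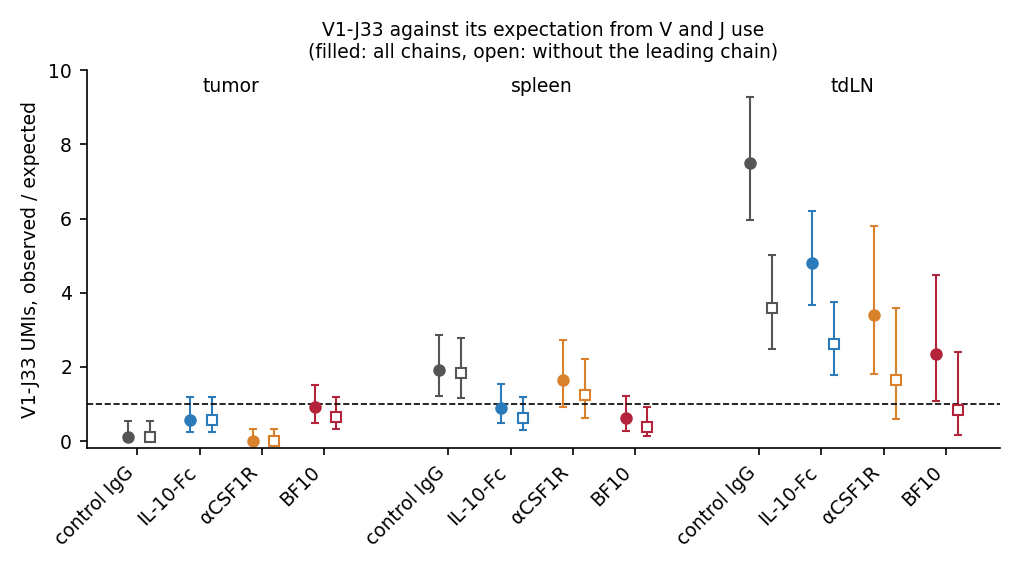
Observed over expected V1-J33 UMIs (y axis) in each library, by tissue and treatment, with 95% Poisson intervals of the observed count and a dashed line at 1. Filled circles are all V1-J33 chains and open squares leave out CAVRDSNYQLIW, without which the tdLN libraries sum to a ratio of 2.59.

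The leading chain carried much of the tdLN excess. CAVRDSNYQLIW held 49 of 83 V1-J33 UMIs in the control IgG tdLN library, 29 of 59 with IL-10-Fc, 7 of 13 with αCSF1R and 6 of 9 with BF10. It was the chain with the most UMIs in each of these libraries and held 55.5% of V1-J33 UMIs in tdLNs (exact 95% interval 47.5% to 63.2%). In spleens it held 1 of 23 with control IgG, 4 of 13 with IL-10-Fc, 4 of 15 with αCSF1R and 3 of 8 with BF10, in all 20.3% (11% to 32.8%). In tumors it was listed with BF10 only, at 4 of 14 UMIs. Its share of TRAC UMIs was 0.0253% in tdLNs (0.0203% to 0.031%), 0.00258% in spleens (0.00133% to 0.00451%) and 0.00125% in tumors (0.000341% to 0.0032%), each with 4 libraries summed. Without this chain, the ratio to expectation was 2.59 (2.03 to 3.26) in tdLNs, 0.975 (0.716 to 1.3) in spleens and 0.371 (0.22 to 0.586) in tumors. By single library it then stayed above 1 in the control IgG tdLN (3.59, 2.48 to 5.01) and IL-10-Fc tdLN (2.63, 1.78 to 3.76), while the intervals of αCSF1R (0.607 to 3.6) and BF10 (0.17 to 2.41) held 1.

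Other chains were listed at few UMIs. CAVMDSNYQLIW held 13 UMIs and occurred in the 4 tdLN libraries, with 0 UMIs in spleens and tumors. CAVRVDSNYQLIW held 11 UMIs, 10 of them in the control IgG spleen library, where it was the leading chain. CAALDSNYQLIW held 9 UMIs in 4 libraries and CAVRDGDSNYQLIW held 7 in 2 libraries, and it was the leading chain of the IL-10-Fc tumor library with 3 UMIs. In the αCSF1R spleen library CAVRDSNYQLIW shared the first place with another chain at 4 UMIs. The only V1-J33 UMI of the control IgG tumor library belonged to a chain of 15 residues. In all, 49 amino acid sequences were listed, of which 36 occurred in 1 library, and 32 of the 80 clonotypes had 1 UMI.

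CDR3 length was the next property of the invariant chain to be examined. A CDR3 of 12 residues was the most common, at 168 of 245 V1-J33 UMIs (68.6%, exact 95% interval 62.4% to 74.3%), with lengths from 10 to 16. The same length made up 9.51% of UMIs of V1 with other J (8.57% to 10.5%) and 22.9% of J33 with other V (22.5% to 23.4%). The most common lengths of these classes were 14 residues (28.3%) and 13 residues (42.6%), in that order. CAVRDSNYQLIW alone supplied 107 of the 168 V1-J33 UMIs of 12 residues. By tissue, 12 residues made up 142 of 164 V1-J33 UMIs in tdLNs (86.6%, 80.4% to 91.4%), 18 of 59 in spleens (30.5%, 19.2% to 43.9%) and 8 of 22 in tumors (36.4%, 17.2% to 59.3%). Counted by clonotype, it was 34 of 44 in tdLNs (77.3%, 62.2% to 88.5%), 7 of 24 in spleens (29.2%, 12.6% to 51.1%) and 4 of 12 in tumors (33.3%, 9.92% to 65.1%). These intervals cover counting error only.

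**Figure D3:**
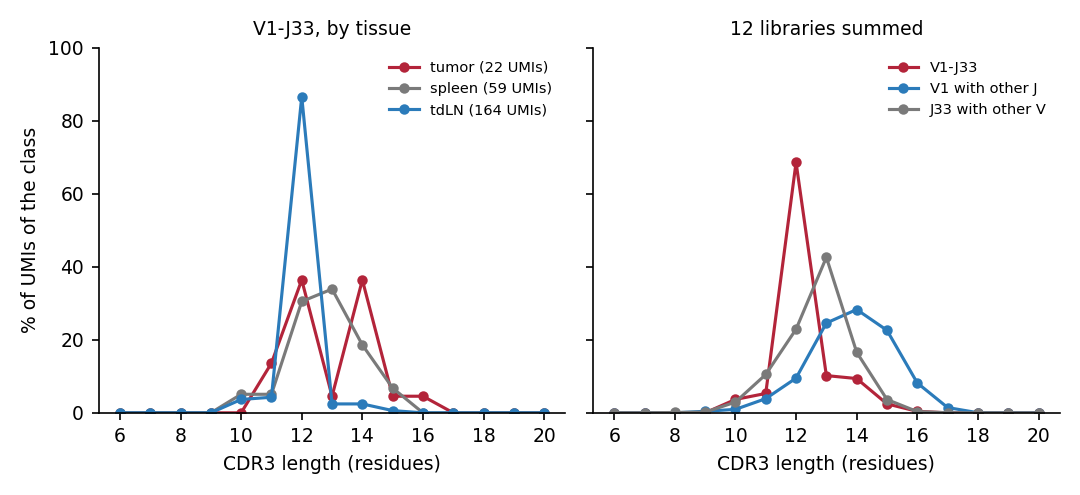
CDR3 length in residues (x axis) against the percent of UMIs of the class (y axis). Left, V1-J33 by tissue with 4 libraries summed, where 12 residues held 86.6% in tdLNs, 30.5% in spleens and 36.4% in tumors. Right, all 12 libraries summed, where 12 residues held 68.6% of V1-J33, 22.9% of J33 with other V and 9.51% of V1 with other J.

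Over libraries, the 12-residue part of V1-J33 lay between 81.4% and 92.3% in tdLNs, between 4.35% and 60% in spleens and between 0% and 50% in the 3 tumor libraries with a V1-J33 UMI. The tdLN and spleen libraries did not overlap, nor did those of tdLNs and tumors. However, 12 residues were chosen as the most common length over all libraries, and tdLNs held 142 of the 168 UMIs. A high tdLN value therefore follows in part from that choice. In spleens 13 residues were the most common, at 20 of 59 UMIs (33.9%). In tumors 12 and 14 residues tied at 8 of 22 UMIs. The αCSF1R tumor library had no V1-J33 UMI, so the test used the other 3 treatments and did not pass the threshold (exact permutation test, p = 0.0833, adjusted p = 0.104, smallest possible p 0.0278). Among the 168 UMIs of 12 residues, 152 (90.5%) ended in the same 8 residues as the leading chain. Before that ending stood 14 pairs of residues 3 and 4. Valine with arginine, which is the leading chain itself, led with 107 UMIs, followed by valine with methionine (13) and alanine with leucine (9). Germline Traj33 encodes the 8 end residues, so that ending follows largely from the choice of J33. Its share among J33 with other V was not measured.

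At the join, 3 of the 61 distinct V1-J33 nucleotide sequences (4.92%) held no base beyond the germline ends, and they accounted for 118 of 245 UMIs (48.2%). The main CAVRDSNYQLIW sequence alone held 105 of these UMIs, and the others held 7 and 6. The mean number of added bases was 3.1 over the distinct sequences and 1.47 over UMIs, with at most 8. The distinct V1-J33 sequences kept a mean of 23.9 Traj33 bases (SD 2.36, n = 61), and those of J33 with other V kept 23.2 (SD 3.06, n = 12103). They kept a mean of 10.7 Trav1 bases (SD 3.15, n = 61), against 12 (SD 2.67, n = 1397) for V1 with other J.

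Some nucleotide sequences recurred across pools of mice. Of the 61 sequences, 10 (16.4%) were in 2 or more libraries, and these held 60.8% of V1-J33 UMIs. Each of the 10 occurred in at least 2 treatments, hence in separate pools of mice, and 9 of them were listed in a tdLN. Of all 61 sequences, 34 were listed in a tdLN, and tdLNs held 164 of the 245 UMIs. For comparison, 11% of the sequences of V1 with other J and 14.4% of those of J33 with other V were in 2 or more libraries, and these held 29.6% and 45.3% of the UMIs of their class. The V1-J33 value rested on the leading sequence, and without it 44 of 140 UMIs (31.4%) were in shared sequences. The leading amino acid sequence was not restricted to V1, as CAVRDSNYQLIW with other V regions held 223 UMIs over 12 libraries, most with V3-3 (43 UMIs), V3N-3 (37) and V7N-4 (37). The leading nucleotide sequence itself was assigned to V9D-4 (8 UMIs) and V9D-1 (4 UMIs) in 5 libraries. V1 was never listed together with another V region in an ambiguous assignment.

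Among the J regions joined to V1, J33 led in tdLNs, with 14.8% of V1 UMIs. It took rank 12 in spleens with 3.68% and rank 13 in tumors with 1.97%. By library, J33 held 22.2% of V1 UMIs in the control IgG tdLN (exact 95% interval 18.1% to 26.7%, rank 1), 13.3% with IL-10-Fc (10.2% to 16.8%, rank 1), 8.97% with αCSF1R (4.86% to 14.8%, rank 2) and 6.21% with BF10 (2.88% to 11.5%, rank 5). In spleens its share of V1 UMIs lay between 1.86% and 5.79%, and in tumors between 0% and 2.85%. The 3 other J regions with the largest V1 shares were J23, J30 and J22. The median share of TRAC UMIs of V1-J23 was 0.0438% in tumors, 0.0295% in spleens and 0.0171% in tdLNs, and it ranged from 0% to 0.135% in tumors. V1-J30 had medians of 0.0295%, 0.0325% and 0.0208% in the same order, and V1-J22 of 0.0192%, 0.0306% and 0.0314%. In tumors a clonotype of V1 with another J reached 85 UMIs with control IgG and another 104 UMIs with BF10, while the largest V1-J33 clonotype of tumors had 4.

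**Figure D4:**
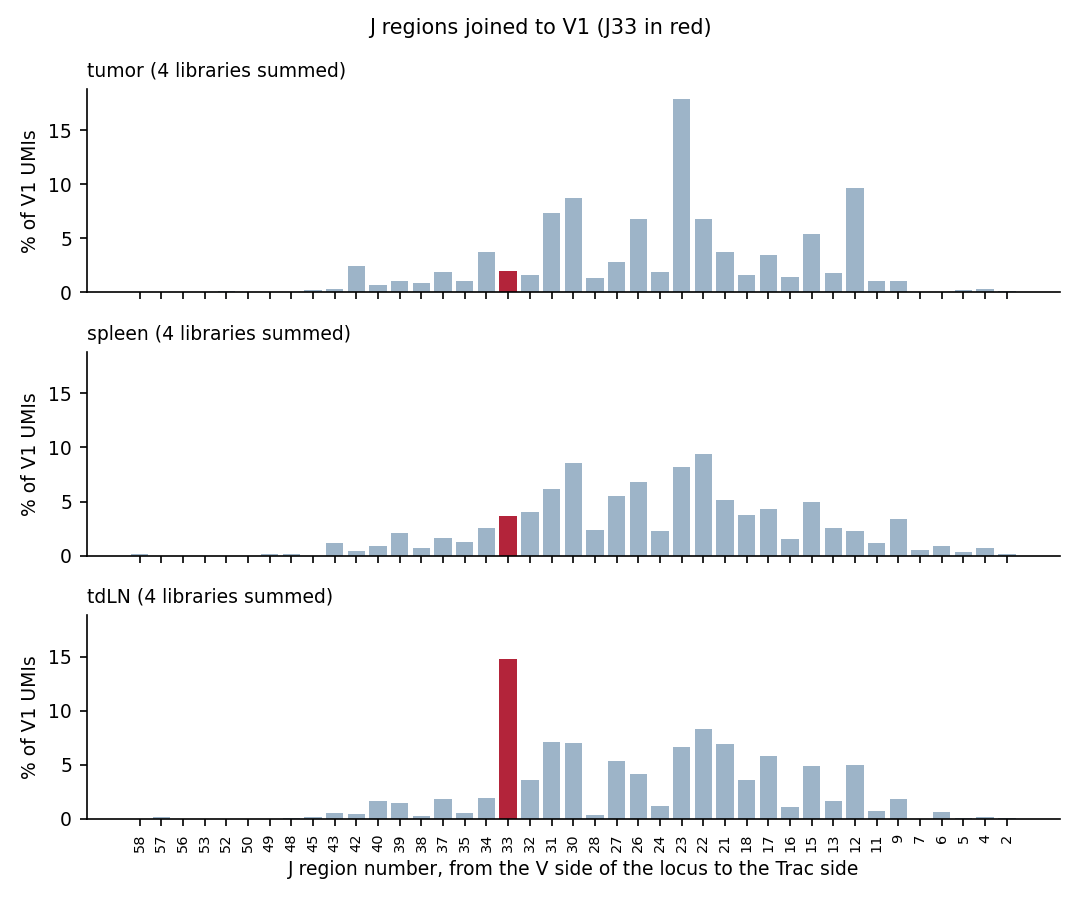
Percent of V1 UMIs joined to each J region (y axis), with J regions in their order along the locus from the V side to the Trac side (x axis) and 4 libraries summed in each panel. J33, in red, held 1.97% of V1 UMIs in tumors, 3.68% in spleens and 14.8% in tdLNs.

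The size of the tissue difference was also read against all V-J pairs. With at least 20 UMIs required in the spleen library, V1-J33 qualified with control IgG only. There its share in tdLN was 4.09 times that in spleen (exact 95% interval 2.55 to 6.8), a 2-fold or higher ratio that 4.95% of 1515 pairs reached. With at least 5 UMIs required, the ratio was 4.02 with IL-10-Fc (2.18 to 7.98), 2.39 with BF10 (0.818 to 7.12) and 1.45 with αCSF1R (0.635 to 3.26), where 9.36%, 10.7% and 9.73% of pairs were at least 2-fold higher. The last 2 intervals held 1. Between tumor and spleen, the ratio was 0.0626 with control IgG (1 against 23 UMIs, 0.00152 to 0.385), and 50.5% of pairs were at least 2-fold lower there, so that a low value was common among pairs. The ratio was 0.661 with IL-10-Fc (0.223 to 1.78), 0 with αCSF1R (0 to 1.3) and 1.77 with BF10 (0.691 to 4.86), where 21.1%, 72.8% and 16.7% of pairs were at least 2-fold lower. A difference of V1-J33 between tumor and spleen was not detectable in these 3 treatments at this depth.

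Treatments were compared within each tissue, without a replicate check. Relative to control IgG, the share in tdLNs was 0.527 times with IL-10-Fc (exact 95% interval 0.371 to 0.745), 0.242 times with αCSF1R (0.124 to 0.437) and 0.197 times with BF10 (0.0871 to 0.392). The reads behind each UMI moved with this order in part. Of TRAC UMIs, 36% rested on at least 7 reads with control IgG and 30.8% with IL-10-Fc, but 8.31% with αCSF1R and 6.49% with BF10, and the 2 latter libraries also held 0.312 and 0.274 TRAC UMIs per TRBC UMI against 0.816 and 0.741. The part of read depth in the difference was not tested. Without those 2 libraries the tdLN ratio to expectation was 6.08. In spleens, the ratio to control IgG was 0.337 with BF10 (0.13 to 0.78), and the intervals of IL-10-Fc (0.536, 0.249 to 1.1) and αCSF1R (0.682, 0.331 to 1.37) held 1. In tumors, BF10 exceeded control IgG 9.51 times (14 against 1 UMI, 1.45 to 402). Counted by clonotype, with 7 of 55103 against 1 of 9468 TRAC clonotypes, that ratio was 1.2.

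Chains of other unconventional T cells were followed in the same libraries. The NKT-type chain, V11 or V11D with J18, held 0.27% to 0.496% of TRAC UMIs in tdLNs and 0.00423% to 0.0238% in tumors. In spleens it held 0.464% with control IgG, 0.507% with αCSF1R and 0.325% with BF10, but 0.0454% with IL-10-Fc. It was therefore lower in tumors than in spleens in each of the 4 treatments. V1-J33 did not share this in every treatment, as it stood at 0.0119% in tumor and 0.00674% in spleen with BF10. Of the 4 spleen values of the NKT-type chain, 2 lay within the range of tdLNs and 1 above it. Chains of γδ T cells (TRGC and TRDC) held 4.96% to 6.34% of all UMIs in tdLNs, 0.677% to 2.3% in spleens and 0.873% to 8.93% in tumors. Within each treatment, the tdLN library thus held higher UMI shares of both V1-J33 and γδ chains than that of spleen. Over the 12 libraries, however, the shares of V1-J33 and of γδ chains had a Pearson r of only 0.2. The highest γδ share, 8.93%, was that of the αCSF1R tumor library, which held no V1-J33. Whether the CD8 selection passed different cells in the 3 tissues was not tested. The V-J pairs whose shares followed V1-J33 most closely over the 12 libraries, among 660 pairs, were V6D-5V6N-5 with J43 (Pearson r = 0.89), V7D-2 with J13 (r = 0.881) and V9D-1 with J13 (r = 0.88), where the median pair had r = 0.152. All of these points share the libraries and their depth, and V7D-2 with J13 also lay highest in the control IgG and IL-10-Fc tdLN libraries, at 0.338% and 0.347%.

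**Figure D5:**
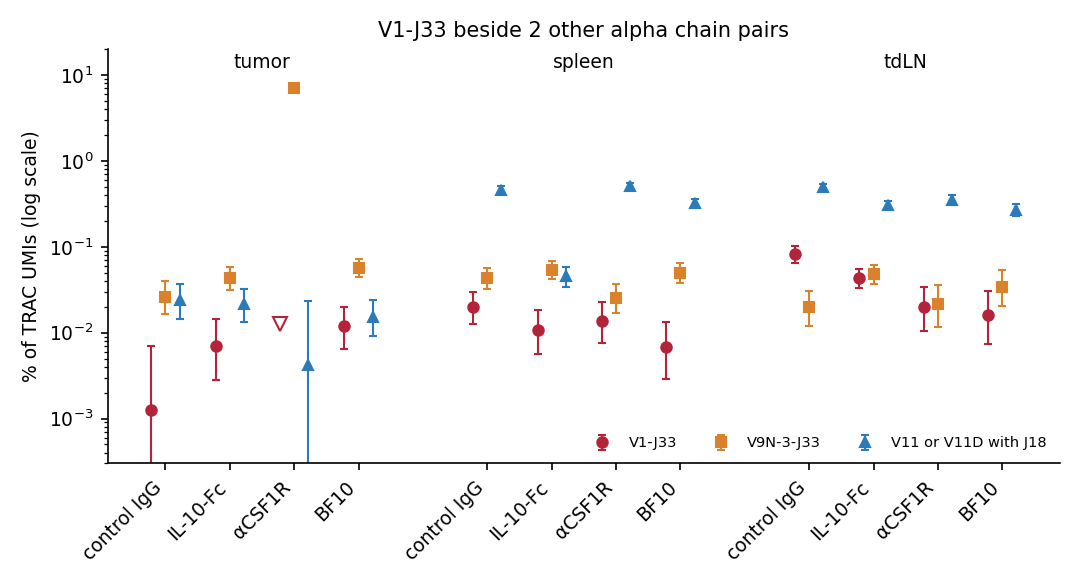
Share of TRAC UMIs (percent, log scale on the y axis) of V1-J33, V9N-3 with J33 and V11 or V11D with J18 in each library, with exact 95% intervals. The open triangle is the limit of 3 UMIs, 0.0127%, for the αCSF1R tumor library without V1-J33, where V9N-3 with J33 stood at 7.17%.

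J33 was also part of an expanded chain of tumors that shares the J33 end but not V1. V9N-3 (Trav9n-3, chr14:53231433-53232102) with J33 held 1696 of 23650 TRAC UMIs in the αCSF1R tumor library (7.17%, exact 95% interval 6.85% to 7.51%), which was 50% of the J33 UMIs there. In the other tumor libraries it held 0.0263% with control IgG, 0.0435% with IL-10-Fc and 0.0569% with BF10, and in spleens and tdLNs between 0.0197% and 0.0544%. The chain was listed for contrast because of its expansion, and its values are a description. Its leading amino acid sequence with αCSF1R and BF10 was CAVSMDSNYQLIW, against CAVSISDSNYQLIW with control IgG and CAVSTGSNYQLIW with IL-10-Fc. The clonotype with the most UMIs is shown to compare its join with that of the V1-J33 chain.

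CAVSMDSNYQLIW, V9N-3 with J33: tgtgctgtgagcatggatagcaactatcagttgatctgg

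It has 13 residues, and its 13 Trav9n-3 bases and 26 Traj33 bases meet directly, with 0 bases from neither. It held 1497 UMIs in the αCSF1R tumor library, and 4 to 18 UMIs in the other libraries that listed it, 11 of 12 libraries in all. Of the V9N-3 with J33 UMIs of that tumor, 88.6% belonged to its amino acid sequence. No V1-J33 clonotype came near such a size. The largest, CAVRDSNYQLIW in the control IgG tdLN library, had 47 UMIs, or 0.0463% of TRAC UMIs, and 0 V1-J33 clonotypes reached 0.1% in any library. The other V regions with the largest J33 shares were V7D-2, with medians of 0.141% in tumors, 0.167% in spleens and 0.182% in tdLNs, and V12D-2, with 0.0879%, 0.0954% and 0.0605%. In tumors their shares reached 3.8% and 1.29%. V1-J33 clonotypes had a mean of 3.73 UMIs in tdLNs, 2.46 in spleens and 1.83 in tumors, and those of J33 with other V had 1.86, 2.12 and 4.26. Without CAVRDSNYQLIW, the V1-J33 means were 1.87 in tdLNs, 2.35 in spleens and 1.64 in tumors.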

How the data were processed

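TCR libraries of CD8+ T cells were made by the authors with a QIAseq kit from 100 ng of RNA each. The authors' Qiagen portal grouped reads by UMI and assigned V, J and CDR3, and the submitters' processing notes name the build mm10. The aligner and its germline reference are not given in the sources used here. The authors deposited unnormalized counts, namely the UMIs of a clonotype that rest on at least 3 reads (main) or 7 reads (an alternative), in 1 table per tissue. The sources used here name no batch, and a batch that went with tissue could not be told apart from tissue. The deposited frequencies and ranks were not used. TRAC rows were split by V and J region, and shares were taken of each library's TRAC UMIs, which numbered 23650 to 137078 (3 UMIs are 0.0127% to 0.00219%). Ambiguous V assignments made up 25.5% of TRAC UMIs.

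Intervals are exact 95% (Clopper-Pearson for shares, conditional binomial for ratios of shares, Poisson for counts) and cover counting error only. Tissues were compared by permuting tissue names within each of 4 treatments (1296 arrangements), with the highest minus the lowest tissue mean as statistic and Benjamini-Hochberg adjustment over 5 tests at a threshold of 0.05. The replicates are pools of mice under different treatments, so p-values measure the spread between these. Treatment was the block, although whether the tissues of a treatment came from the same mice is not given in the sources used here. A library without V1-J33 UMIs has no length share, and its treatment was left out of that test. Germline ends were read from GRCm38 with GENCODE vM21 gene positions, and bases of each CDR3 were matched from both ends. Chains named were the 5 amino acid CDR3s with the highest mean share, the leading chain of each library, the 3 leading partners of V1 and of J33, the leading V9N-3 with J33 chain of each tumor and the 3 pairs most correlated with V1-J33. The sequences of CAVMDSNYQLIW were added after values were seen. Members, lists and tests were chosen with earlier results of these data known. Alternatives were 7 reads, at least 2 UMIs, clonotypes counted once, no clonotypes of at least 0.1%, no ambiguous assignments, merging of CDR3s 1 base apart and at least 10-fold lower, log2(value + 0.01), each treatment left out, other minimums for pairs, and, chosen after seeing the data, αCSF1R with BF10 left out and the leading chain left out. The scripts were tested on simulated data. Tests ran in scipy 1.17.1, tables in pandas 2.3.3 with numpy 2.4.6 and plots in matplotlib 3.10.9, under Python 3.11.15.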

Additional observations from a re-analysis of the deposited data

How the results depend on the processing

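The 3 tissue comparisons that passed the threshold kept the tissues with the highest and lowest mean under the alternatives run. Within αCSF1R and BF10, however, the tdLN no longer held the highest V1-J33 share when clonotypes were counted once. For V1 with other J, tumor and spleen changed places as the highest under some, and for the 12-residue length tumor and spleen did so as the lowest. The adjusted p of the V1-J33 share and of the V1 part of J33 was 0.208 for both with UMIs of at least 7 reads and 0.116 for both with each clonotype counted once. Leaving out 1 treatment at a time, the exact permutation test gave adjusted p from 0.0463 to 0.139 for the V1-J33 share, the same range for the V1 part of J33 and for J33 with other V. Leaving out αCSF1R and BF10 together (chosen after seeing the data), whose tdLN libraries had few reads per UMI, left 36 arrangements and p = 0.167 for the V1-J33 share, the smallest that these allow, with means of 0.0624% in tdLNs, 0.0154% in spleens and 0.00417% in tumors. Counting each clonotype once moved the ratio of BF10 to control IgG in tumors to 1.2, and the ratio of observed to expected UMIs to 0.97 in tumors and 2.81 in tdLNs. It also moved the ratio of IL-10-Fc to control IgG in tumors across 1, from 5.66 to 0.991. The spleen ratio of observed to expected UMIs, 1.21, crossed 1 as well, at 0.936 with UMIs of at least 7 reads, 0.999 with each clonotype counted once and 0.975 without the leading chain. The main intervals of both held 1. The tdLN ratio was 6.51 with at least 2 UMIs and 2.59 without the leading chain. With UMIs of at least 7 reads the ratio of BF10 to control IgG in tdLNs was 0, because the BF10 library then held 0 V1-J33 UMIs. The share of pairs at least 2-fold higher in tdLN than in spleen with control IgG was 8.79% with at least 5 spleen UMIs, and that of pairs 2-fold lower in tumor was 32.3% without clonotypes of at least 0.1%. With at least 2 UMIs, no ratio to control IgG could be given in tumors, since that library then held no V1-J33. The 4 tumor libraries together held 22 V1-J33 UMIs, which limits the precision of their values.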
